A study of Mus musculus with 8 samples.

Results

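Mice with 2 deleted alleles of the 1b interval of *Scn1a* (1b-/-, n = 2) were compared with mice carrying 1 deleted allele (1b+/-, n = 4), which makes 6 of the 8 libraries sequenced. The question was what loss of the second 1b allele adds to the state in which one copy is already gone. Every gene with at least 1 CPM, a count scaled to a library of standard size, in at least 1 of the 6 libraries was taken, and this left 15422 of the 24015 entries in the count table. The 2 WT libraries stand beside some results for reference, and they entered the fit only to help estimate the spread.

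All mice were of the C57BL/6N strain and of postnatal day 7 (P7), and each library was made from the RNA of 1 mouse according to the labels. The mutant alleles go back to a single line that was made by injecting Cas9 into oocytes and was then bred to wildtype mice. The animals labelled HT (1b+/-) were 2 males and 2 females, the animals labelled KO (1b-/-) were both female, and the WT mice were both male. Sex is therefore unequal between the groups, and many of the gene lists below are also given against the 1b+/- females alone. For the tissue, the labels give hippocampus, while forebrain is given for this age in the methods. Total counts ran from 2947770 to 20878772 per library, so that 3 counts correspond to between 0.145 and 1.0 CPM. The X-inactivation transcript *Xist* and the genes of the Y chromosome followed the labelled sex in every library.

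*Scn1a* encodes the pore-forming alpha subunit of the voltage-gated sodium channel NaV1.1, which opens on depolarization and carries the rising phase of the action potential. In the mature brain NaV1.1 is known for its role in inhibitory interneurons, above all those that fire fast, and loss of one functional copy of the human gene causes Dravet syndrome, a severe epilepsy of infancy. The gene has more than one first exon. The non-coding exons 1a and 1b begin alternative transcripts with the same coding sequence, and the interval removed in these mice holds the start site at 1b.

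The 30 bases in front of the annotated start at 1b are shown because they are part of what 1b-/- mice have lost in both alleles. They were read 5′ to 3′ on the minus strand of mm9, with CpG dinucleotides in capitals.
1b, chr2:66248122-66248151: tagagtgaggCGaggatgaagcCGagagga
The window held 2 CpG and 56.7% G and C, and the letters TATAA were not in it. The start at 1b lay 30773 bases downstream of the start at 1a, which is intact in all mice. The table counts reads per gene, so reads from 1a and 1b transcripts were summed and cannot be told apart here.

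*Scn1a* fell with the loss of the second allele. It stood at 26.7, 22.2, 25.4 and 15.7 CPM in the 1b+/- libraries and at 3.19 and 2.0 CPM in the 1b-/- libraries, so the groups were far from overlapping. The mean was 22.5 CPM ± 4.91 (SD, n = 4) in 1b+/- and 2.59 CPM ± 0.836 (SD, n = 2) in 1b-/-. The fitted log2 fold change was -3.07 (SE 0.31), with a 95% interval from -3.73 to -2.40 and an adjusted p of 0.00493 (quasi-likelihood test of edgeR with Benjamini-Hochberg adjustment). Put as a share, 1b-/- mice had 11.9% of the 1b+/- level, with an interval from 7.52% to 19%. The CPM values gave an exact permutation p of 0.133, taken by doubling the p of a single direction. With that doubling, 0.133 is the smallest that the 15 arrangements of 4 and 2 libraries allow. Without 1b-/- replicate 1 the adjusted p was 0.098, and without 1b-/- replicate 2 it was 0.103, with log2 fold changes of -3.51 and -2.85.

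The remaining signal in 1b-/- mice rested on 26 and 8 counts and was above a count of 0 in both libraries. WT libraries held 45.2 and 40.5 CPM. In absolute terms the mean of the 1b+/- mice was 20.3 CPM below WT, and that of the 1b-/- mice was a further 19.9 CPM below 1b+/-. In a bulk sample, fewer cells that express the gene and less RNA per cell cannot be told apart. Against the 1b+/- females alone the log2 fold change of *Scn1a* was -2.96.

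No gene other than *Scn1a* passed the threshold, and 1 gene is 0.00648% of the 15422 genes tested. The quasi-likelihood test gave 192 genes (1.24%) at an unadjusted p under 0.05, of which 72 (0.467%) were higher and 120 (0.778%) were lower in 1b-/- mice by fitted value. Between these groups of 2 and 4 libraries, 534 genes (3.46%) were higher and 603 (3.91%) lower in 1b-/- with no overlap. The fitted value was above 0 for 7590 genes (49.2%), and the median over all genes was -0.00 on the log2 scale. Genes with a mean of at least 5 CPM in 1b+/- or 1b-/-, apart from the sex-linked genes listed below, numbered 11414. Of these, 35 had a fitted change of at least 1 on the log2 scale, 5 of them higher and 30 lower. Only *Pou4f2* had a larger fitted change than *Scn1a* there (-4.35, SE 2.34, adjusted p = 1). It was picked out after its values were seen, and of its 1b+/- libraries replicate 1 held 21.2 CPM while the others held between 0 and 2.63.

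**Figure D1:**
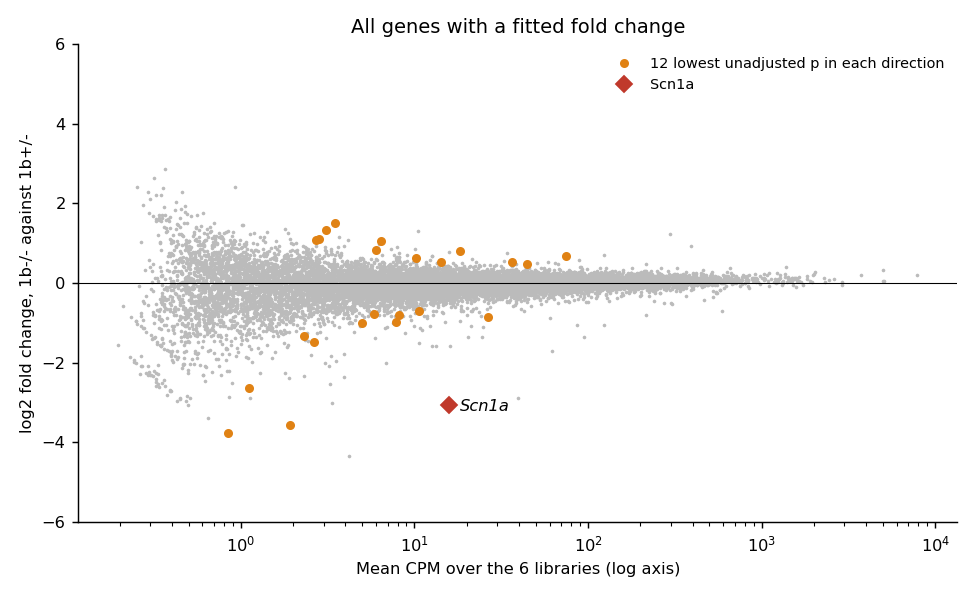
Mean CPM over the 6 libraries on a log axis against the fitted log2 fold change of 1b-/- against 1b+/- for 15400 genes with a fitted value, 3 of which lie beyond the axis limit of 6. *Scn1a* (diamond) sits at -3.07, apart from genes of its level, and the orange points are the 12 genes of lowest unadjusted p in each direction, of which only *Scn1a* passed the adjusted threshold.

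The precision of these comparisons depended on the level of the gene. The median SE was 0.94 log2 below 1 CPM, 0.32 between 3 and 10 CPM, and 0.15 at 100 CPM or more. For 11069 genes (71.8%) the 95% interval lay wholly within a change of 1 on the log2 scale in either direction, and for 1 gene, *Scn1a*, it lay wholly outside. Changes of genes under about 3 CPM were mostly not detectable with 2 mice in one group.

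The other alpha subunits are the proteins that could carry sodium current beside NaV1.1. *Scn2a1* encodes NaV1.2, the main sodium channel of excitatory neurons early in life, and had 316, 293, 352 and 276 CPM in 1b+/- and 381 and 335 CPM in 1b-/-. Its log2 fold change was 0.21 (SE 0.14, interval -0.10 to 0.51). *Scn3a*, the NaV1.3 gene of the embryonic and newborn brain, had 220, 169, 203 and 163 CPM against 207 and 197 CPM (log2 fold change 0.09, interval -0.23 to 0.42). The 1b-/- values of both genes lay inside or above the 1b+/- range, and the groups overlapped. Neither gene passed the threshold.

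*Scn8a* encodes NaV1.6, which takes over at the axon initial segment as neurons mature. Its values were 78.4, 79.9, 76.3 and 64.1 CPM in 1b+/- and 85.4 and 72.6 CPM in 1b-/-, with a log2 fold change of 0.08 (interval -0.24 to 0.39). *Nalcn*, a sodium leak channel that sets resting excitability, had 109, 78.3, 101 and 76.1 CPM against 91.5 and 104 CPM, a log2 fold change of 0.09 (interval -0.28 to 0.46). The intervals of *Scn2a1*, *Scn3a*, *Scn8a* and *Nalcn* each excluded a gain of 1 on the log2 scale. The low *Scn4a*, *Scn10a* and *Scn11a*, genes of muscle and of sensory neurons, were between 0 and 4.82 CPM in 1b+/- and between 0 and 1.47 CPM in 1b-/-. Of these only *Scn11a* had groups without overlap, in the lower direction, where 3.91% of all genes did so.

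Per kilobase of exon, *Scn1a* was at 2.03 CPM in 1b+/- and 0.234 CPM in 1b-/-. On the same scale *Scn2a1* was at 33.4 and 38.6 CPM, *Scn3a* at 15 and 16.1 CPM, and *Nalcn* at 12.5 and 13.4 CPM. The *Scn1a* level was thus already a small part of the alpha subunit RNA at P7 in mice with 1 deleted allele. The 11 listed genes, which are the alpha subunits and the leak channel *Nalcn*, summed to between 621 and 820 CPM in the 1b+/- libraries. In the 1b-/- libraries they summed to 825 and 750 CPM. The median log2 fold change of the 11 genes was 0.09, with 7 above 0, and it was 0.17 against the 1b+/- females.

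**Figure D2:**
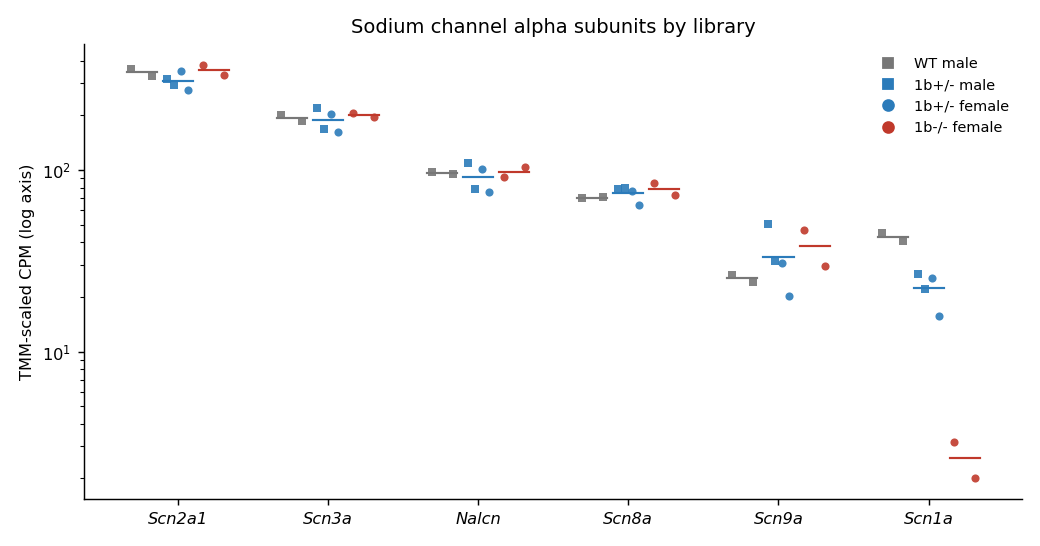
TMM-scaled CPM on a log axis of 6 sodium channel alpha subunits in each library, with squares for males, circles for females and a line at each group mean. The 1b-/- libraries of *Scn1a* (3.19 and 2.0 CPM) lie below the 4 1b+/- libraries (15.7 to 26.7 CPM), and for the other 5 genes the groups overlap.

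*Scn7a* and *Scn9a* lie next to *Scn1a* on chromosome 2 of mm9, at 66511482-66622971 and 66318137-66473009, both on the minus strand like *Scn1a* itself (66108838-66278897). *Scn9a*, which encodes NaV1.7 and is best known from sensory neurons, had 50.2, 31.4, 30.9 and 20.3 CPM in 1b+/- and 46.9 and 29.5 CPM in 1b-/-. Its groups overlapped widely, with a log2 fold change of 0.19 (interval -0.46 to 0.83). *Scn7a* encodes NaX, a sodium-sensing channel of glia, and had 7.13, 2.12, 0.872 and 1.0 CPM in 1b+/- against 0.367 and 0 CPM in 1b-/-. Those 1b-/- values stand for 3 and 0 counts, so no fold is given, and the unadjusted p of 0.0119 did not pass adjustment (adjusted p = 1).

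*Scn7a* was also the only flanking gene besides *Scn1a* to reach an unadjusted p under 0.05, where 1.24% of all genes did. Of 51 genes that start within 5 Mb of *Scn1a*, 45 were tested, 28 were above 0 by fitted value, and the median log2 fold change was 0.09, or 0.10 against the 1b+/- females. The groups did not overlap for 2 of them in the higher and 2 in the lower direction, *Scn7a* included, where 3.46% and 3.91% of all genes did so. *Bbs5*, which encodes a component of the cilium transport complex BBSome, was at 8.97, 8.28, 10.9 and 8.34 CPM in 1b+/- and at 12.5 and 12.5 CPM in 1b-/- (log2 fold change 0.44, SE 0.21). *Csrnp3*, a gene of a nuclear protein expressed in neurons, was the most abundant flanking gene and had 510, 661, 596 and 530 CPM against 758 and 561 CPM. *Sp5*, a target of Wnt signalling, had 7.06, 3.64, 1.26 and 1.34 CPM against 1.72 and 0.501 CPM, and most of its 1b+/- signal was in the male replicates 1 and 2.

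The auxiliary beta subunits anchor the channels and set their gating. All 4 were tested and none passed the threshold, with a median of 0.23 on the log2 scale, or 0.12 against the females. *Scn3b* had 260, 191, 273 and 251 CPM in 1b+/- and 225 and 313 CPM in 1b-/-. *Scn2b* had 20.7, 16.5, 19.7 and 25.0 CPM against 22.7 and 28.3 CPM. Of 18 genes of the axon initial segment and its partners, 14 had fitted values above 0 and 17 had an interval within a change of 1 on the log2 scale. *Fgf14*, which binds the tail of sodium channels, was at 53.1, 54.2, 66.4 and 47.4 CPM and at 68.0 and 64.3 CPM.

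Among the genes of the initial segment, *Lgi1* alone had an unadjusted p under 0.05, where 1.24% of all genes did. It encodes a secreted protein that links synaptic receptors and is mutated in a human focal epilepsy. Its values were 26.5, 21.5, 30.5 and 26.0 CPM in 1b+/- and 32.1 and 40.6 CPM in 1b-/-. It was thus higher without overlap between the groups, where 3.46% of all genes were so. WT libraries held 34.5 and 37.3 CPM. The log2 fold change was 0.46 (SE 0.18, unadjusted p = 0.0266, adjusted p = 1).

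No potassium or calcium channel gene passed the threshold. Of 46 potassium channel genes tested, 24 were above 0 and 22 below 0, with a median log2 fold change of 0.01. *Kcnc4* gave the lowest p with 10.4, 5.36, 5.09 and 5.67 CPM in 1b+/- and 3.80 and 4.51 CPM in 1b-/-. *Kcnq5*, which encodes a subunit of the M-current, was among the most abundant at 56.1, 86.9, 82.6 and 74.7 CPM against 111 and 70.3 CPM. Of 19 calcium channel genes, 15 were above 0 (median 0.09), and each interval lay within a change of 1. *Cacna2d3*, an auxiliary subunit, was at 60.2, 30.7, 71.3 and 53.7 CPM and at 63.2 and 73.1 CPM. The 4 HCN genes had a median of -0.12 on the log2 scale and the 6 chloride transporters and channels one of -0.04, and *Hcn3* and *Clcn3* lay in overlapping ranges.

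NaV1.1 matters most in inhibitory neurons, so genes of GABA signalling were set apart. Of 23 interneuron markers tested, 18 had fitted values above 0, with a median log2 fold change of 0.11, or 0.08 against the females, and 21 had intervals within a change of 1. *Gad2*, which makes GABA, was at 112, 130, 134 and 106 CPM in 1b+/- and at 157 and 129 CPM in 1b-/-. *Lhx6*, a transcription factor of interneurons from the medial ganglionic eminence, had 79.4, 83.8, 120 and 142 CPM against 134 and 143 CPM. The summed level of the list was 1821 to 2361 CPM in 1b+/- and 2166 and 2355 CPM in 1b-/-. *Pvalb* and *Vip*, markers of interneuron classes that mature later, were below the 1 CPM filter in all 6 libraries.

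Of 13 GABA-A receptor subunits, 10 were above 0 with a median of 0.16, and the groups overlapped for each. *Gabrb2* had 312, 305, 372 and 249 CPM in 1b+/- and 422 and 303 CPM in 1b-/-. The glutamate receptors gave 17 of 22 above 0 and a median of 0.13. *Grm5*, a metabotropic receptor, had 330, 219, 369 and 267 CPM against 383 and 388 CPM, and *Grik3*, a kainate receptor, had 137, 151, 143 and 163 CPM against 185 and 172 CPM. Both were higher without overlap, where 3.46% of all genes were so. Their log2 fold changes were 0.38 (SE 0.19) and 0.27 (SE 0.13), with adjusted p = 1 each. *Grin2b*, the NMDA receptor subunit of immature synapses, was at 186, 205, 191 and 176 CPM and at 226 and 200 CPM.

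Of 26 genes of the presynaptic terminal, none passed the threshold and 20 had fitted values above 0, with a median of 0.07. *Syn3*, a vesicle phosphoprotein gene, was at 155, 135, 160 and 122 CPM and at 170 and 166 CPM. *Unc13a*, which primes vesicles for release, was at 171, 154, 190 and 199 CPM and at 185 and 231 CPM. Of 56 clustered protocadherins, which give neurons their surface identity, 42 were above 0 with a median of 0.15, and 5 were higher without overlap, where 3.46% of all genes were so. Their isoform families share constant exons, so the assignment of reads among them is uncertain. *Pcdhga9* had 13.2, 14.7, 14.9 and 9.01 CPM against 16.5 and 18.8 CPM.

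Genes that respond to neuronal firing were examined because loss of NaV1.1 is linked with seizures. None of 30 immediate early genes passed the threshold, 13 were above 0, and the median was -0.04. *Nr4a2*, an orphan nuclear receptor gene, had 77.0, 67.3, 155 and 109 CPM in 1b+/- and 186 and 147 CPM in 1b-/-, with WT at 194 and 155 CPM. Its groups overlapped, and the log2 fold change was 0.71 (SE 0.28, unadjusted p = 0.0246). *Npas4*, which is induced by calcium entry, had 1.39, 2.02, 1.21 and 1.33 CPM against 2.33 and 3.75 CPM, a log2 fold change of 0.99 (SE 0.44, unadjusted p = 0.0463). *Klf4* had 7.32, 5.46, 6.39 and 6.34 CPM against 4.29 and 4.51 CPM. Of 15 genes tested from a list of seizure and injury response, 6 were above 0 with a median of -0.14, and of 13 heat shock and unfolded protein genes 6 were above 0 with a median of -0.00.

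Apart from channels, 28 genes of human epileptic encephalopathies were tested, and 22 were above 0 with a median of 0.09. *Prrt2*, a presynaptic gene of infantile seizures, was at 42.1, 27.1, 35.2 and 36.4 CPM and at 41.2 and 48.8 CPM.

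The 12 genes of lowest unadjusted p in each direction, with no overlap and the same sign against the females, were then described. This selection chose them for their values, and all but *Scn1a* had an adjusted p of 1, so what follows describes these 6 mice. On the higher side *Rsph4a*, which encodes a radial spoke protein of motile cilia, had 4.49, 2.93, 5.57 and 6.01 CPM in 1b+/- and 8.70 and 10.8 CPM in 1b-/-. WT mice held 16.3 and 12.9 CPM, above both groups. The ratio of 1b-/- to 1b+/- was 2.07-fold (interval 1.33 to 3.21).

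*Slc4a5*, a bicarbonate transporter gene of the choroid plexus, had 2.57, 0.808, 1.94 and 3.67 CPM in 1b+/- and 5.27 and 6.76 CPM in 1b-/-, with 6.62 and 7.36 CPM in WT. The ratio was 2.86-fold (interval 1.5 to 5.45). *Dnah9*, a dynein heavy chain gene of motile cilia, had 8.58, 8.89, 9.45 and 7.34 CPM against 11.1 and 16 CPM. *Maats1*, a gene of the ciliary axoneme, had 1.85, 1.52, 2.18 and 2.34 CPM against 3.55 and 4.76 CPM. These 4 genes are known from cells that line the ventricles, and the levels of such cells in each library are given below.

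Transcription factor genes of defined forebrain fields were on the same side. *Isl1*, which specifies striatal and cholinergic neurons, had 35.8, 26.8, 36.7 and 28.4 CPM in 1b+/- and 50.8 and 40.8 CPM in 1b-/-, with 36.7 and 32.8 CPM in WT. The ratio was 1.43-fold (interval 1.08 to 1.90). *Prox1*, which marks granule cells of the dentate gyrus, had 14.6, 11.6, 20.1 and 11.7 CPM against 21.2 and 30.8 CPM, with 30.7 and 17 CPM in WT. The ratio was 1.73-fold (interval 1.11 to 2.71).

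*Synm*, which encodes the intermediate filament protein synemin, had a narrow spread at 37.3, 41.8, 42.2 and 36.4 CPM in 1b+/- and 52.8 and 57.6 CPM in 1b-/-, a ratio of 1.39-fold (interval 1.12 to 1.74). *Ctla2a*, an inhibitor of cysteine proteases, had 4.29, 4.95, 4.6 and 5.34 CPM against 7.72 and 9.26 CPM. *A930011O12Rik* had 61.0, 85.8, 58.5 and 43.4 CPM against 104 and 97.4 CPM, whereas WT held 35.3 and 60.9 CPM. The remaining 3 were *2010204K13Rik*, *1700009P17Rik* and *5530601H04Rik*, with log2 fold changes of 1.11, 1.33 and 0.54. Of these, *2010204K13Rik* and *5530601H04Rik* lie on the X chromosome. Against the 1b+/- females their log2 fold changes were 0.97 and 0.43.

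On the lower side after *Scn1a* came *Proser2*, with 2.71, 4.35, 2.66 and 3.67 CPM in 1b+/- and 1.10 and 1.25 CPM in 1b-/-. WT mice, at 1.41 and 1.53 CPM, were below 1b+/- as well. The log2 fold change was -1.49 (SE 0.45). *Stard10*, a lipid transfer protein gene, had 5.61, 6.67, 5.38 and 6.01 CPM against 2.21 and 4.01 CPM, a log2 fold change of -0.99 (SE 0.31). *Leng9* had 2.84, 2.83, 2.08 and 4.0 CPM against 1.35 and 0.751 CPM.

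*Map3k11*, a kinase upstream of JNK, had 12, 11, 11.5 and 14 CPM in 1b+/- and 7.10 and 7.76 CPM in 1b-/- (log2 fold change -0.70, SE 0.24). *Itgb3*, the beta3 integrin gene, had 8.51, 6.57, 6.10 and 6.01 CPM against 4.04 and 4.01 CPM, and *Hmcn1*, an extracellular matrix gene, had 40.4, 38.3, 25.0 and 21.4 CPM against 16.2 and 19 CPM. WT values of *Itgb3* were 4.22 and 4.29 CPM and those of *Hmcn1* were 11 and 19.5 CPM. Both WT pairs were nearer to 1b-/- than to 1b+/-. *Emilin3* and the mast cell chymase gene *Cma1* were at or below 0.251 CPM in both 1b-/- libraries, which is at most 3 counts each, and between 0.334 and 2.64 CPM in 1b+/-, so no fold is given.

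**Figure D3:**
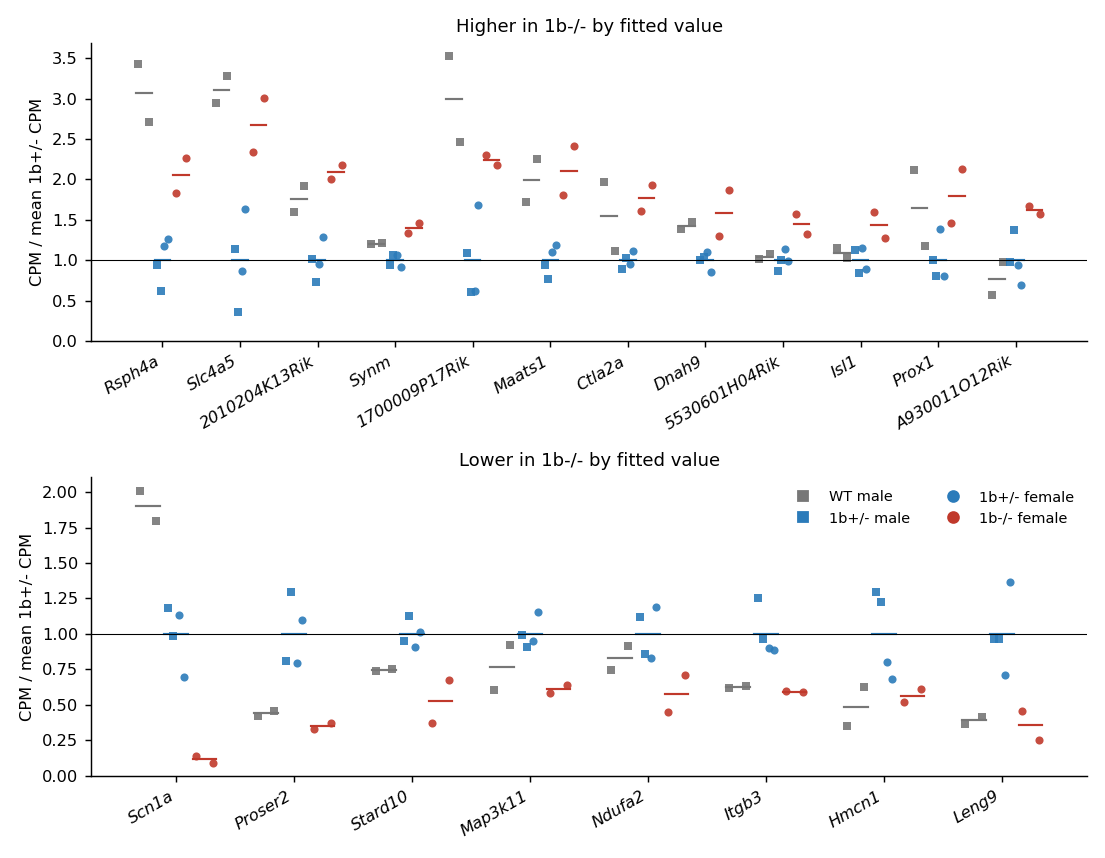
CPM of each library divided by the mean of the 4 1b+/- libraries for the 12 genes of lowest unadjusted p on the higher side (top) and for 8 of those on the lower side (bottom, leaving out genes with at most 3 counts in each 1b-/- library), with lines at group means. The drop of *Scn1a* to about 0.1 of the 1b+/- mean is far larger than that of any other gene shown, and in several genes WT libraries lie on the same side of 1b+/- as 1b-/-.

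*Ndufa2*, the last of the set, encodes a subunit of complex I of the respiratory chain. It had 10.7, 8.18, 7.90 and 11.4 CPM in 1b+/- and 4.29 and 6.76 CPM in 1b-/- (log2 fold change -0.81, SE 0.28). Of 72 oxidative phosphorylation genes tested, 21 were above 0 and 51 below 0, with a median of -0.08, or -0.17 against the females. *Ndufa2* was the only one of the 72 at an unadjusted p under 0.05, where 1.24% of all genes were so. *Ndufc1* was at 15.4, 16.7, 16.1 and 17.4 CPM and at 13.6 and 10.5 CPM, and *Atp5o*, a subunit of ATP synthase, was at 53.3, 39.5, 42.1 and 61.4 CPM and at 33.0 and 41.1 CPM. The cytosolic ribosomal proteins gave 19 of 62 above 0 with a median of -0.10. *Rplp0* had 122, 78.2, 89.9 and 91.4 CPM against 60.3 and 85.6 CPM. Many such genes have near-identical processed copies, and their counts are uncertain for that reason.

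Glycolysis genes had a median of -0.06 over 15 genes, and cholesterol synthesis genes one of 0.07 over 21. The 26 cell cycle genes had a median of -0.20, or -0.16 against the females, with 2 above 0, and in 25 of them the interval lay within a change of 1. *Aurkb*, a mitotic kinase gene, was at 9.37, 13.5, 9.40 and 12.7 CPM in 1b+/- and at 9.31 and 6.51 CPM in 1b-/-. *Bub1b*, a spindle checkpoint gene, was at 46.8, 77.3, 49.4 and 63.7 CPM and at 48.4 and 44.3 CPM. Summed over the list, 1b+/- replicate 2 was highest at 2513 CPM and 1b+/- replicate 1 lowest at 1284 CPM, and both 1b-/- sums, of 1895 and 1426 CPM, lay between them. Genes of immature neurons and neuroblasts had 10 of 18 above 0 and a median of 0.03, with *Nhlh1*, a neuronal transcription factor gene, at 3.10, 5.56, 2.37 and 3.34 CPM against 1.84 and 1.0 CPM.

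Most glial markers were lower in 1b-/- libraries by fitted value, and no glial marker passed the adjusted threshold. Of 15 astrocyte markers, 14 were below 0, with a median of -0.29 against all 1b+/- libraries and again of -0.29 against the females. The groups did not overlap for 4 of the 15, all in the lower direction, where 3.91% of all genes did so. *Aldoc*, a glycolytic enzyme of astrocytes, was at 75.5, 76.4, 80.5 and 103 CPM in 1b+/- and at 53.2 and 69.6 CPM in 1b-/- (log2 fold change -0.45, SE 0.17, unadjusted p = 0.0244). *Gfap* was at 5.67, 5.36, 8.09 and 6.34 CPM against 4.90 and 3.50 CPM, and *Fabp7*, the most abundant, at 551, 679, 584 and 444 CPM against 447 and 440 CPM. The sum of the list was between 1792 and 2103 CPM in 1b+/- and 1603 and 1623 CPM in 1b-/-, while WT libraries had 1594 and 1783 CPM. The 1b-/- sums thus lay below each of the 4 1b+/- sums, beside WT.

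The astrocyte gene *S100b* had 6.20, 2.22, 2.57 and 1.33 CPM in 1b+/- and 1.47 and 0.751 CPM in 1b-/-, an overlapping range. *Gjb6*, a gap junction gene, had 24.2, 16.2, 13.3 and 12.7 CPM against 11.8 and 8.01 CPM. Of 18 microglial markers, 15 were below 0 with a median of -0.23, or -0.26 against the females. *Csf1r*, the receptor on which microglia depend, was at 19.3, 12.4, 15.5 and 18 CPM and at 13.7 and 14 CPM, and *Ptprc* at 5.08, 3.54, 4.02 and 2.67 CPM and at 2.69 and 2.0 CPM. *Laptm5* went the other way, at 7.13, 7.58, 7.85 and 6.67 CPM in 1b+/- and 10.9 and 8.51 CPM in 1b-/-. It was higher without overlap (log2 fold change 0.41), where 3.46% of all genes were so. *Itgam* (0.45) and *Aif1* (0.16) were above 0 as well.

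In the oligodendrocyte lineage 12 of 17 genes were below 0, with a median of -0.14. *Sox10*, which drives the lineage, had 8.64, 12.8, 9.35 and 9.01 CPM in 1b+/- and 3.55 and 8.26 CPM in 1b-/-. It was lower without overlap, where 3.91% of all genes were so (log2 fold change -0.84, SE 0.35, unadjusted p = 0.0397). *Mbp* was at 22.4, 17.6, 21.3 and 19.4 CPM against 15.2 and 16 CPM. Myelin genes are only beginning to be expressed in the forebrain at this age. Endothelial and mural genes, at a median of -0.05 over 24 genes, and 4 red blood cell genes, at a median of -0.18, had sums that overlapped between the groups.

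**Figure D4:**
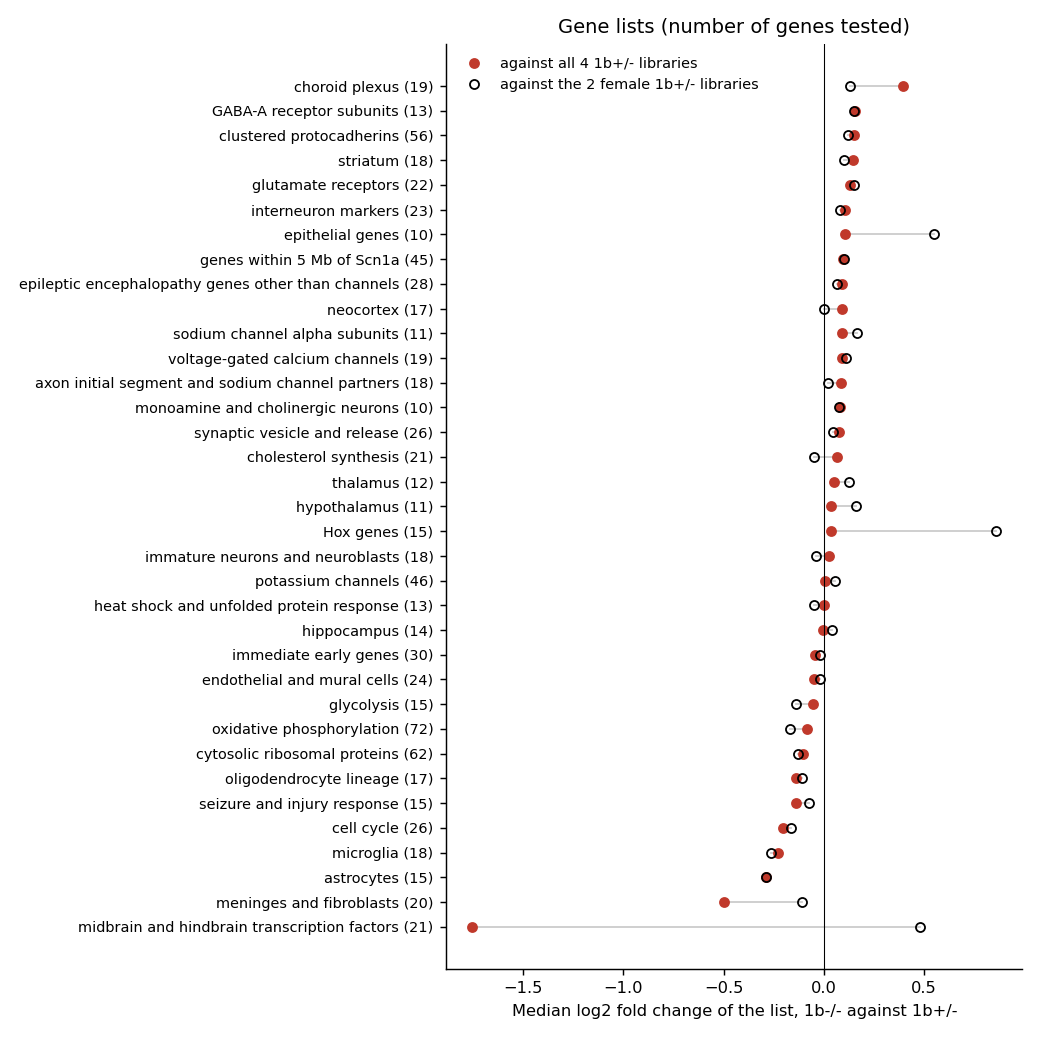
Median log2 fold change of 1b-/- against 1b+/- for each gene list with at least 10 genes tested, the number in brackets, against all 4 1b+/- libraries (filled) and against the 2 female ones (open). The astrocyte median is -0.29 in both, whereas that of the midbrain and hindbrain transcription factors moves from -1.75 to 0.48.

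Markers of tissue that could be carried along in a dissection were counted in every library. Meningeal and fibroblast genes gave 20 of 20 below 0, with a median of -0.50 that was -0.11 against the females. Their sum was 2750 CPM in the male 1b+/- replicate 1 and 1529, 1224 and 1316 CPM in the other 1b+/- libraries, against 1448 and 992 CPM in 1b-/-. *Col1a1* had 380 CPM in that replicate and 102, 61.2 and 55.7 CPM in the rest, with 83.3 and 61.1 CPM in 1b-/-, and its sign turned when only females were compared. *Col3a1* had 474, 335, 228 and 320 CPM against 296 and 175 CPM, and *Dcn* 121, 134, 88.7 and 87.4 CPM against 86.8 and 67.6 CPM. *Hmcn1* and *Itgb3* stood highest in the same 1b+/- replicate, and the part that these cells had in their values was not tested.

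Transcription factors of the midbrain and hindbrain gave 20 of 21 below 0 and a median of -1.75, which was 0.48 against the 1b+/- females. The sums were 317 and 92.4 CPM in the 1b+/- males, 23.0 and 13.7 CPM in the 1b+/- females, and 33.7 and 23.3 CPM in 1b-/-. *Tfap2b* alone made up much of this, with 161 and 48.6 CPM in the males, 7.36 and 6.01 CPM in the females, and 11.5 and 2.75 CPM in 1b-/-. *Pax2*, a gene of the midbrain-hindbrain boundary, was at 1.58 and 1.52 CPM in the males, and it had 0 counts in 1b+/- replicate 4 and in 1b-/- replicate 1. *Scn7a* and *Sp5* also had their highest values in these males, and a share of such tissue in them was not tested. *Hox* genes, which mark still more posterior tissue, summed to 4.29, 19.3, 4.17 and 1.33 CPM in 1b+/- and to 11.5 and 0.501 CPM in 1b-/-.

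Choroid plexus genes varied many-fold among mice of one genotype. *Ttr*, the transthyretin gene of choroid plexus epithelium, was at 168, 6.77, 153 and 886 CPM in 1b+/- and at 379 and 766 CPM in 1b-/-, with 885 and 938 CPM in WT. The list gave 13 of 19 above 0 and a median of 0.40, or 0.13 against the females. Its sum was 134 to 1130 CPM in 1b+/- and 549 and 992 CPM in 1b-/-. *Tmem72*, a membrane protein gene of the same epithelium, had 1.25, 0.303, 1.41 and 1.67 CPM against 1.84 and 4.26 CPM, and *Cldn2*, a tight junction gene, had 2.24, 1.21, 1.55 and 6.34 CPM against 3.55 and 7.26 CPM. *Slc4a5* is a member of this list, and it was lowest in 1b+/- replicate 2 as the sum was. The part of choroid plexus in its values was not tested.

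Ependymal genes, from the ciliated lining of the ventricles, were above 0 in 8 of 9 tested, with a median of 0.62, or 0.54 against the females. *Foxj1*, the master regulator of motile cilia, had 6.93, 5.36, 5.96 and 9.34 CPM in 1b+/- and 8.70 and 12.5 CPM in 1b-/- (log2 fold change 0.65, SE 0.30), and *Rsph1* had 2.18, 1.31, 2.96 and 4.34 CPM against 3.55 and 5.51 CPM. The sum was 32.3, 26.6, 27.8 and 34.0 CPM in 1b+/- and 36.9 and 41.1 CPM in 1b-/-, without overlap, and 39.97 and 43.9 CPM in WT. *Rsph4a*, *Dnah9* and *Maats1* are not members of this list. They were chosen above for having no overlap, so standing above all 1b+/- libraries was set by that choice. The part of ciliated cells in their values was not tested.

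Genes listed for neuronal fields of the forebrain were detected in all libraries. Neocortical genes summed to between 2365 and 3239 CPM in 1b+/- and to 3398 and 2703 CPM in 1b-/-, and hippocampal genes to between 1081 and 2216 CPM and to 2145 and 1270 CPM. *Neurod6* alone made up most of the hippocampal sum, with 915, 2041, 1574 and 1386 CPM in 1b+/- and 1971 and 1074 CPM in 1b-/-. That sum therefore says little about the other genes of its list. The medians of the neocortical and hippocampal lists were 0.09 and -0.00 on the log2 scale. Striatal genes, of which 11 of 18 were above 0 with a median of 0.15, summed to 583, 407, 580 and 487 CPM in 1b+/- and to 618 and 563 CPM in 1b-/-. Although the labels name hippocampus, striatal and cortical genes stood beside hippocampal ones in each library.

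Within the striatal list *Drd2*, a dopamine receptor gene, had 7.06, 6.47, 8.19 and 5.67 CPM against 11.8 and 8.26 CPM, and *Six3* had 11.3, 13.4, 9.74 and 7.01 CPM against 18 and 15.8 CPM. Both, like *Isl1*, were higher in 1b-/- without overlap, where 3.46% of all genes were so. Their log2 fold changes were 0.54 (SE 0.24) and 0.67 (SE 0.26), and neither passed adjustment (adjusted p = 1). Other members of the list were below 0, among them *Adora2a* (-0.27), *Penk* (-0.14) and *Gpr6* (-1.03, SE 0.97). *Prox1* was the only one of 14 hippocampal genes at an unadjusted p under 0.05, where 1.24% of all genes were so. Thalamic genes (median 0.05 over 12), hypothalamic genes (0.04 over 11), monoamine and cholinergic genes (0.08 over 10) and epithelial genes (0.11 over 10) had medians close to that of all genes, and these became 0.13, 0.16, 0.08 and 0.55 against the females.

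**Figure D5:**
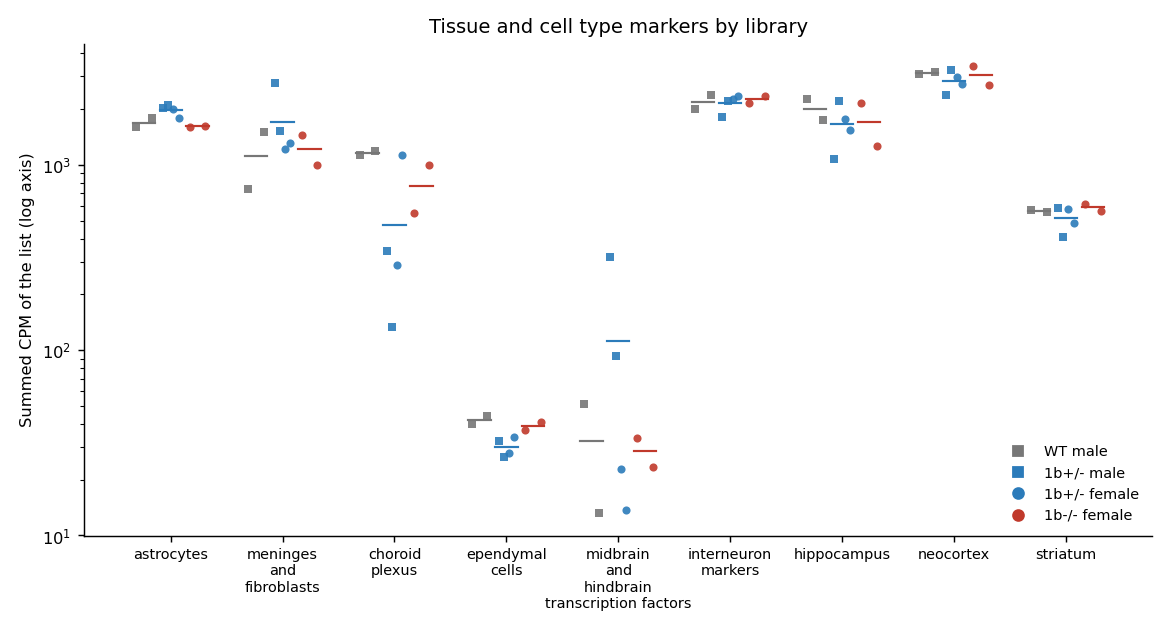
Summed CPM of the markers of 9 tissues or cell types in each library on a log axis, with squares for males, circles for females and lines at group means. The male 1b+/- libraries stand apart in midbrain and hindbrain transcription factors (317 and 92.4 CPM), choroid plexus differs widely within 1b+/-, and the astrocyte sums of 1b-/- lie below those of 1b+/-.

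A list of 9 sex-linked genes was kept apart, because the 1b+/- group holds males and the 1b-/- group does not. Other X-linked genes stayed among the rest. The Y-linked genes *Ddx3y*, *Kdm5d*, *Uty* and *Eif2s3y* were the 4 of 9 sex-linked genes at an unadjusted p under 0.05. With sex as a covariate, 80 genes were higher and 34 lower at that threshold, in place of 72 and 120, so lower genes no longer outnumbered higher ones. That fit compares 1b-/- with the 1b+/- females, and it thereby also sets aside the 1b+/- males with the summed midbrain and hindbrain transcription factors of 317 and 92.4 CPM, so sex and this tissue content cannot be told apart here. *Scn1a* remained the only gene past adjustment in that fit, with a log2 fold change of -2.96 and an adjusted p of 0.0458.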

How the data were processed

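RNA was extracted per mouse, and stranded poly(A) libraries were sequenced from a single end. The authors aligned reads to mm9 with STAR 2.7.2 and deposited raw counts per gene from featureCounts. The annotation and the use of strand in counting are not given in the sources used here. Of the genes tested, 14142 (91.7%) were found by symbol in GENCODE vM1, which gave positions and exon lengths, and 22 whose symbol had become a date were not named.

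Genes with at least 1 CPM in 1 of the 6 libraries were fitted with genotype as the only factor in edgeR 4.0.16 (R 4.3.3), with TMM scaling, all 8 libraries and the quasi-likelihood test, adjusted by Benjamini-Hochberg at 0.05. The method was checked only on counts simulated from its own fitted model, which hold no differences of sex or tissue content between mice. CPM are TMM-scaled, folds and SE are fitted, and intervals are at 95%. If mice were not independent, the p-values could be too small. Counting floors cover counting error only.

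Genes were named by these rules. They are *Scn1a* and other alpha subunits, and the 12 lowest unadjusted p in each direction. For these 12 the listed sex-linked genes were left out. They also needed no overlap, at least 1 CPM in the higher group and the same sign against the 1b+/- females. From each of 41 lists, up to 3 members of lowest p and the most abundant were added. Not all are printed, and some are not reported here. The comparison and the lists were chosen with earlier results of these data known, and the epithelial list was drawn from these libraries. Lists received no test. The alternatives were RLE and upper quartile scaling, filterByExpr and no filter, a likelihood ratio test, DESeq2 1.42.0, sex as a covariate, the 6 libraries alone, females alone, and omission of each library.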

Additional observations from a re-analysis of the deposited data

Results flagged for a closer look

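Among the 4 1b+/- libraries, a value was marked when the gap to its nearest neighbour took up more of the range than Dixon's 95% limit for 4 values allows. This was applied to 124 measures, the genes and list sums described above, and chance alone marks about 1 in 20. Of these, 5 were marked. *Col1a1* was marked for 380 CPM in replicate 1, against a next value of 102 CPM. *Kcnc4* was marked for 10.4 CPM in the same replicate, against 5.67 CPM, and *Sox10* for 12.8 CPM in replicate 2, against 9.35 CPM. The summed hypothalamic genes were marked for 10.3 CPM in replicate 4, where the others had 16.3 CPM or more, and the summed *Hox* genes for 19.3 CPM in replicate 2, where the others had 4.29 CPM or less.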

How the results depend on the processing

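*Scn1a* was past the threshold in 16 of 18 alternatives, and in those it was the only gene called. Its log2 fold change ran from -3.51 to -2.85 when single libraries were left out, and the number of genes called from 0 to 1. No gene was called without 1b-/- replicate 1 or without 1b-/- replicate 2, where a group of 1 is assumed to vary like the others. Adjusted p over all alternatives ran from 1.31e-16 to 0.103. The genes at an unadjusted p under 0.05 numbered 143 higher and 210 lower with no filter, 44 higher with DESeq2, and 34 lower with sex as a covariate or against the 1b+/- females in the fit of all libraries (33 with females only). With single libraries left out they were 50 to 113 higher and 97 to 193 lower.

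For medians of lists, sex as a covariate and the fit against 1b+/- females (identical models here) gave 0.48 for midbrain and hindbrain transcription factors, 0.86 for *Hox* genes and 0.55 for epithelial genes, and females only gave 0.53, 1.12 and 0.61. The hypothalamic median was -0.42 with filterByExpr and -0.23 with no filter, and that of monoamine and cholinergic genes was -0.19 with filterByExpr. With single libraries left out, medians ran from -0.14 to 0.011 for immediate early genes, -0.39 to 0.0044 for the oligodendrocyte lineage, -0.40 to -0.26 for astrocytes, 0.39 to 0.74 for ependymal cells, -0.28 to 0.14 for hippocampus, -0.93 to 0.088 for hypothalamus, -0.15 to 0.11 for monoamine and cholinergic genes, -4.32 to -0.57 for midbrain and hindbrain transcription factors, -5.28 to 1.40 for *Hox* genes and -0.35 to 0.31 for epithelial genes. They ran from -0.27 to -0.017 for ribosomal proteins, -0.071 to 0.18 for cholesterol synthesis, -0.33 to 0.15 for glycolysis, -0.15 to 0.022 for heat shock genes, -0.59 to 0.14 for red blood cells and -0.10 to 0.17 for genes within 5 Mb of *Scn1a*.

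The sign turned with sex as a covariate or against the females in the full fit, and with females only, for *Col1a1* (0.31 and 0.31), *Scn10a* (0.26 and 0.25) and *Tfap2b* (0.17 and 0.16). It turned in the omission of 1 library for *Csrnp3* (-0.036 to 0.40), *Gabrb2* (-0.033 to 0.44), *Kcnq5* (-0.095 to 0.56), *Nalcn* (-0.0022 to 0.19), *Scn3b* (-0.11 to 0.36), *Scn8a* (-0.047 to 0.19) and *Scn9a* (-0.20 to 0.47), none of which passed the threshold. For these moves the cause was not tested. No paired analysis was possible because the labels give each mouse a number of its own. Depth limits genes under about 3 CPM.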
